A study of Mus musculus with 8 samples.

Results

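The proteasome genes examined here were the 9 that encode the exchangeable catalytic subunits of the proteasome and its activator of the PA28 type. The set was defined by gene symbol: Psmb5, Psmb6 and Psmb7 (constitutive subunits), Psmb8, Psmb9 and Psmb10 (immunosubunits), and Psme1, Psme2 and Psme3 (activator subunits). All 9 were present among the 27514 genes that the gene lists of both data sets share. All 9 passed the filter on low counts in both comparisons. Expression was measured by droplet single-cell RNA-seq in 8 libraries of thymic epithelial cells (TEC) from wild-type C57BL/6 mice labelled CD45.2, with no transgene or treatment in any group. One library each came from total TEC of embryonic day E13.5 and from cTEC of E15.5, of E17.5 and of newborns (NB). Adult cTEC and adult mTEC had 2 libraries each. Per the methods of the study, newborns were in their first days of life, adults were a few weeks old, and mice of either sex were used. Cells were sorted as viable CD45- EpCAM+ cells. Total TEC had no further gate, cortical TEC (cTEC) were Ly51+ UEA-1- and medullary TEC (mTEC) were Ly51- UEA-1+.

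The proteasome degrades cytosolic proteins, and part of the peptides it makes is loaded on MHC class I. Its core is a barrel whose inner rings each carry catalytic subunits, and in cells exposed to interferon the constitutive subunits are replaced by immunosubunits encoded by Psmb8, Psmb9 and Psmb10. Cortical TEC use one more catalytic subunit, Psmb11 (beta5t), which takes the place of Psmb5 in the thymoproteasome and shapes the peptides on which CD8 T cells are positively selected. Psme1 and Psme2 form the interferon-inducible PA28 cap in the cytoplasm, and Psme3 forms the nuclear PA28-gamma cap.

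The epithelial-like cells used numbered 24625 of 28334 deposited cells, from 493 to 7547 per library, with 2158499 to 82149658 UMIs per library over the shared genes. A UMI is a tag that marks 1 captured RNA molecule, and levels are given as CPM, the UMIs of a gene scaled to a common library total. Adult cTEC replicate 1 was the shallowest library. Psmb11, which defines cTEC, had 3.85 and 8.57 CPM in the adult mTEC libraries and 239 to 1549 CPM in the other 6. The methods of the study divide the libraries into 2 data sets. Data set 1 held E13.5, E15.5, NB and replicate 1 of both adult groups, and data set 2 held E17.5 and replicate 2 of both adult groups. Newborn and adult tissue was digested with Liberase and enriched on Percoll and embryonic tissue with trypsin, so the effect of preparation and that of age cannot be told apart between embryonic and later libraries. No pair of libraries shared more than 61 cell barcodes.

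The 3 immunosubunits did not follow the same course. Psmb9 and Psmb10 were already high in E15.5 cTEC, whereas Psmb8 stayed under 10 CPM until E17.5 and was 67.8 CPM in NB cTEC. Between the adult lineages Psmb9 was higher in cTEC, while the differences of Psmb10 and Psmb8 did not pass the test (adjusted p = 0.33 and 0.242, edgeR). The 3 constitutive subunits spanned no more than 2.30-fold over the 8 libraries. The activator subunits were all lower in adult cTEC than in adult mTEC.

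Psmb8 and Psmb9 lie 9956 bases apart in the MHC region of chromosome 17 (GRCm38, GENCODE M21: Psmb9 at 34181987 to 34187764 on the minus strand, Psmb8 at 34197721 to 34201454 on the plus strand). Psmb10 lies on chromosome 8 (105935735 to 105938444, minus strand). The 250 bases before the RefSeq start of each immunosubunit gene are shown because these genes are known interferon targets and yet followed different courses here (GRCm38.p6, 5′ to 3′ on the strand of the gene; Psmb8 at chr17:34197945-34198194, Psmb9 at chr17:34187331-34187580 and Psmb10 at chr8:105938393-105938642). The RefSeq start of Psmb8 and of Psmb9 lies inside the GENCODE span given here, so their windows lie downstream of the GENCODE gene start, and the Psmb10 window overlaps its span in part. Capitals mark a match to one of the motifs named after the sequences.
Psmb8: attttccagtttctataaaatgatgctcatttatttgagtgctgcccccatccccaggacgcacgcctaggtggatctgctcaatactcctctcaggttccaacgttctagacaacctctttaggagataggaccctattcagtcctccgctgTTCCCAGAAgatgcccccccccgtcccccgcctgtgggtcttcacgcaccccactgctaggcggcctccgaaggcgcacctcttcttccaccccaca
Psmb9: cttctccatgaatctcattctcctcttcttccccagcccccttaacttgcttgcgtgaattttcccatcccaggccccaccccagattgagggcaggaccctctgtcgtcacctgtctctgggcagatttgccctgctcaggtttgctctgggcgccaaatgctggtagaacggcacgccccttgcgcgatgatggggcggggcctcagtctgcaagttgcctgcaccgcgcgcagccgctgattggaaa
Psmb10: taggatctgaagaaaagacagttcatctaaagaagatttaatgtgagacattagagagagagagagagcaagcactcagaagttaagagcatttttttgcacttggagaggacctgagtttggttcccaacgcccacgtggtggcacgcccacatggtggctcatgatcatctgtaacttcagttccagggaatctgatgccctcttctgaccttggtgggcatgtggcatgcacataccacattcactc
Motif patterns bound by interferon-activated or NF-kB factors were searched on both strands of these windows. The GAS pattern TTCNNNGAA (bound by STAT dimers) matched once before Psmb8, as TTCCCAGAA from 97 to 89 bases before the start, and nowhere in the windows of Psmb9 and Psmb10. The patterns GAAANNGAAA (ISRE, bound by IRF and STAT complexes) and GGGNNNTTCC (NF-kB) had no match in the 3 windows. Of 32851 promoter windows of that length, 7.02% held the GAS pattern, 2.98% the ISRE pattern and 4.65% the NF-kB pattern. A match is a match of letters, and none of these windows was tested for binding.

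Psmb5, Psmb6 and Psmb7 encode the chymotrypsin-like, caspase-like and trypsin-like subunits of the constitutive core. Psmb5 (chromosome 14, 54614119 to 54618022, minus strand) had 434 CPM in E13.5 TEC, 471 in E15.5 cTEC, 352 in E17.5 cTEC, 570 in NB cTEC, 277 and 356 in adult cTEC, and 305 and 321 in adult mTEC. Psmb6 (chromosome 11, 70525367 to 70527858, plus strand) had 555, 605, 586, 847, 369 and 500 CPM in the 6 libraries from E13.5 to adult cTEC, and 492 and 478 in adult mTEC. Psmb7 (chromosome 2, 38588036 to 38644087, minus strand) had 256, 271, 185, 337, 168 and 206 CPM in the same order, and 302 and 226 in adult mTEC. All 3 were highest in NB cTEC among the cortical libraries. Adult cTEC replicate 1 was below replicate 2 for each of them. Processed pseudogenes of Psmb5, Psmb6 and Psmb7 are annotated in the genome and are not among the shared genes, so how reads alike to them were counted was not tested.

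Psmb8 encodes beta5i, the immunosubunit that replaces Psmb5. It had 2.90 CPM in E13.5 TEC (42 UMIs), 4.44 in E15.5 cTEC, 8.10 in E17.5 cTEC, 67.8 in NB cTEC, 301 and 200 (251 ± 71.1, SD, n = 2) in adult cTEC, and 358 and 356 (357 ± 1.53, SD, n = 2) in adult mTEC. The order of the 5 stages by Psmb8 was the order of age. Within data set 1 the level was 15.3-fold higher in NB than in E15.5 cTEC and 4.44-fold higher again in adult cTEC replicate 1, and within data set 2 it was 24.8-fold higher in adult than in E17.5 cTEC.

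Psmb9 encodes beta1i, which replaces Psmb6. It had 46.2 CPM in E13.5 TEC, 445 in E15.5 cTEC, 377 in E17.5 cTEC, 776 in NB cTEC, 571 and 711 (641 ± 98.5, SD, n = 2) in adult cTEC, and 210 and 135 (173 ± 53.3, SD, n = 2) in adult mTEC. The level in E15.5 cTEC was 9.64-fold that in E13.5 TEC, and all cortical libraries from E15.5 on stood above both adult mTEC libraries. The gene is arranged head to head with Tap1, the peptide transporter subunit, whose exons it overlaps by 212 bases on the opposite strand. Tap1 had 12.7 CPM in E13.5 TEC, 58.5 in E15.5 cTEC, 181 and 109 in adult cTEC and 108 and 92.7 in adult mTEC. Its lower adult cTEC level and its higher adult mTEC level were thus nearly the same. Tap1 was picked for this comparison after its values had been seen.

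Psmb10 encodes beta2i, which replaces Psmb7. It had 248 CPM in E13.5 TEC, 1349 in E15.5 cTEC, 1396 in E17.5 cTEC, 1547 in NB cTEC, 685 and 1187 (936 ± 355, SD, n = 2) in adult cTEC, and 549 and 633 (591 ± 59.6, SD, n = 2) in adult mTEC. From E15.5 to birth it was on a plateau 5.44- to 6.23-fold above E13.5 TEC, and adult cTEC were below it. The adult cTEC replicates differed by 1.73-fold, and the lower was close to the adult mTEC libraries.

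Among the activator subunits, Psme1 (PA28-alpha, chromosome 14, 55578123 to 55581529) had 20.5, 17.6, 25.3, 31.9, 152 and 107 CPM from E13.5 TEC to adult cTEC, and 367 and 447 in adult mTEC. The step between birth and adulthood was 4.76-fold in data set 1. Psme2 (PA28-beta, chromosome 14, 55587441 to 55591113) had 133, 184, 226, 198, 235 and 248 CPM in the cortical libraries, and 669 and 775 in adult mTEC. Psme1 and Psme2 are neighbours 5911 bases apart, and Psme2 was at 235 and 248 CPM in adult cTEC against 133 to 226 before, a much smaller spread than that of Psme1. Psme2 has a near copy, Psme2b, on chromosome 11 (48945354 to 48946190), with 98.5 and 7.37 CPM in adult mTEC replicates 1 and 2 and 151 and 4.73 CPM in adult cTEC replicates 1 and 2, so the split of reads between the copies is uncertain. Psme3 (PA28-gamma, chromosome 11, 101316213 to 101323537) had 57.7, 34.8, 19.2, 26.9, 27.8 and 23.7 CPM, and 69.6 and 65.9 in adult mTEC. It was the only member with a higher level in E13.5 TEC than in every other cortical library.

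**Figure D1:**
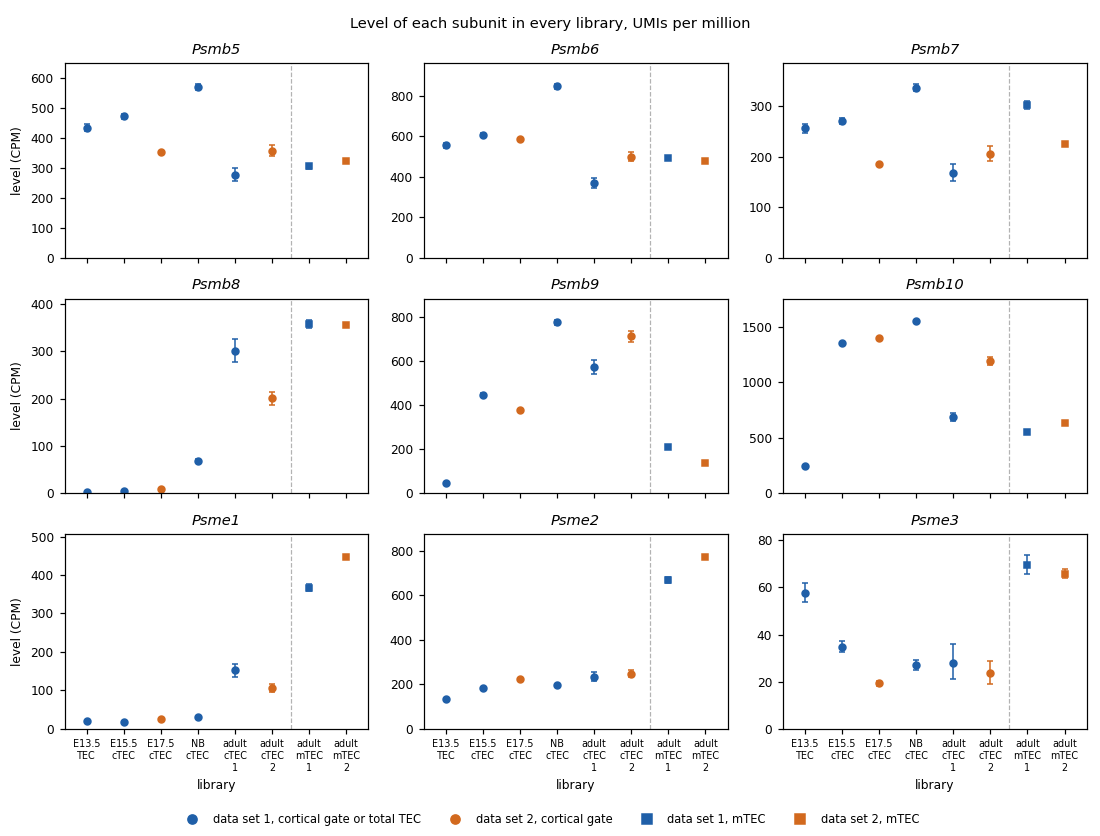
Level in CPM (linear axes from 0) of each of the 9 genes in the 8 libraries, with exact Poisson 95% intervals for counting error only; colour marks the data set and the dashed line separates the adult mTEC libraries. Psmb9 and Psmb10 step up between E13.5 and E15.5, Psmb8 and Psme1 only after E17.5, and the 3 activator genes are highest in adult mTEC.

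The ratio of UMIs of an immunosubunit to those of its constitutive counterpart needs no scaling between libraries. Capture of the 3′ end differs between genes, so a ratio of 1 does not mean equal transcript numbers, and only changes of a ratio between libraries are read. Psmb8/Psmb5 was 0.00669 in E13.5 TEC, 0.00942 in E15.5 cTEC, 0.0230 in E17.5 cTEC, 0.119 in NB cTEC, 1.09 and 0.564 in adult cTEC, and 1.17 and 1.11 in adult mTEC. Against E13.5 TEC it was 162-fold higher in adult cTEC replicate 1, of the same data set, and 84.3-fold higher in replicate 2, of the other data set. Psmb9/Psmb6 was 0.0833 in E13.5 TEC, 0.736 in E15.5 cTEC, 0.643 in E17.5 cTEC, 0.916 in NB cTEC, 1.55 and 1.42 in adult cTEC, and 0.428 and 0.282 in adult mTEC. Most of this change lay between E13.5 and E15.5, where the ratio was 8.83-fold higher. Psmb10/Psmb7 was 0.968 in E13.5 TEC, 4.98 in E15.5 cTEC, 7.55 in E17.5 cTEC, 4.59 in NB cTEC, 4.07 and 5.76 in adult cTEC, and 1.82 and 2.80 in adult mTEC. Against E13.5 TEC it was 5.14-fold higher in E15.5 cTEC and showed no further rise in data set 1.

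Over the 6 cortical libraries, log2 Psmb8/Psmb5 followed stage rank with Pearson's r = 0.97 and Spearman's rho = 0.99 (exact permutation tests, two-sided, p = 0.00556 and p = 0.00556, adjusted over 6 coefficients 0.0111 and 0.0111), at 1.83 per stage. For log2 Psmb9/Psmb6, r was 0.87 and rho 0.93 (exact permutation tests, p = 0.00556 and p = 0.0222, adjusted 0.0111 and 0.0333), at 0.82 per stage, and at 0.39 per stage without E13.5 TEC. For log2 Psmb10/Psmb7, r was 0.60 and rho 0.23 (exact permutation tests, p = 0.194 and p = 0.65, adjusted 0.233 and 0.65). E13.5 TEC lay farthest from the median stage, with E15.5 and both adult libraries tied behind it. Leaving out E13.5 and each of those in turn gave, over 4 libraries, r of 0.98 to 0.99 for Psmb8/Psmb5, 0.86 to 0.99 for Psmb9/Psmb6 and -0.69 to -0.04 for Psmb10/Psmb7, whose positive slope thus rests on E13.5 TEC. After centring on the data set means, r was 0.98 for Psmb8/Psmb5 and 0.86 for Psmb9/Psmb6 (exact permutations within data sets, p = 0.0417 and p = 0.0417, the smallest these can give for r, adjusted 0.0625 and 0.0625), and 0.54 for Psmb10/Psmb7 (exact p = 0.5). E13.5 TEC were the only cortical-line library without the Ly51 gate, so gate and stage cannot be told apart in the first step.

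**Figure D2:**
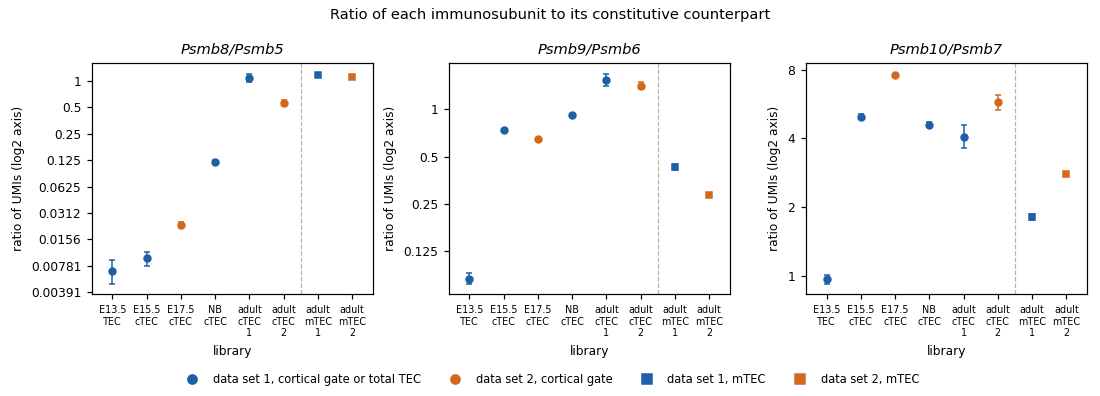
Ratio of UMIs of each immunosubunit to its constitutive counterpart in the 8 libraries on a log2 axis, with exact binomial 95% intervals for counting error only; colour marks the data set and squares are adult mTEC. Psmb8/Psmb5 goes from 0.00669 in E13.5 TEC to 1.09 and 0.564 in adult cTEC, while Psmb10/Psmb7 steps from 0.968 in E13.5 TEC to 4.98 in E15.5 cTEC and then stays between 4.07 and 7.55.

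The slope of each gene on stage rank (E13.5 to adult as 1 to 5) was tested over the 6 cortical libraries with data set as a term. Psmb8 rose by 1.82 ± 0.15 (SE) on the log2 scale per stage (adjusted p = 0.00524, edgeR quasi-likelihood test) and Psme1 by 0.74 ± 0.15 (adjusted p = 0.0384), so 2 of the 9 genes rose and 0 fell. Of all 14325 genes tested, 7.29% passed, 4.60% rising and 2.69% falling. The test is of a straight line over ranks, so a single step followed by a plateau can miss the threshold. The other slopes did not pass the threshold: 0.61 ± 0.28 for Psmb9 (adjusted p = 0.229; slopes of 0.23 without E13.5 TEC to 0.91 without E15.5 cTEC over the alternatives), 0.15 ± 0.28 for Psmb10 (0.771; -0.23 without E13.5 TEC to 0.40 without adult cTEC replicate 1), 0.15 ± 0.08 for Psme2 (0.308; 0.03 without cells with a proliferation score above 0 to 0.25 with Psme2b added), -0.19 ± 0.09 for Psme3 (0.234; -0.26 within data set 1 to -0.07 without E13.5 TEC), and -0.06, -0.05 and -0.04 for Psmb5, Psmb6 and Psmb7 (0.781, 0.849 and 0.857), each of which was above 0 without adult cTEC replicate 1. Without adult cTEC replicate 1 only 12 of all genes were called and none of the 9; the slope of Psmb8 was then 1.81 (adjusted p = 0.0941; 1.25e-27 to 0.0941 over 19 alternatives) and that of Psme1 0.48 (0.305; 0.000649 to 0.305). Psme1 also missed the threshold without E15.5, E17.5 or adult cTEC replicate 2, within data set 1, and without cells with a proliferation score above 0.

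Adult cTEC and adult mTEC were compared over 4 libraries with data set as a term. Psmb9 was higher in cTEC by 1.85 ± 0.41 (SE) on the log2 scale (adjusted p = 0.00107, edgeR), 2.71-fold in data set 1 and 5.26-fold in data set 2. All 3 activator genes were lower in cTEC: Psme1 by -1.74 ± 0.39 (adjusted p = 0.00124), Psme2 by -1.64 ± 0.39 (0.00215) and Psme3 by -1.47 ± 0.38 (0.00413). With Psme2b added to Psme2 the difference was -1.38 ± 0.40 (adjusted p = 0.00951). Hence 1 of 9 genes was higher and 3 were lower, where 10.7% and 20.2% of all 15623 genes tested were (30.8% in either direction). The median log2 difference of all genes was -0.14, which is smaller than each of these 4. Markers of other cells moved with this comparison. Of 6 myeloid genes tested, Lyz2 and Fcer1g were lower in cTEC (-2.94 and -2.43, adjusted p = 0.000981 and 6.40e-05) and 0 were higher. All 5 erythroid genes tested were lower in cTEC, with a list sum of 1.39 and 2.24 CPM in adult cTEC against 84.7 and 108 CPM in adult mTEC. Of 10 thymocyte genes 2 were higher in cTEC (Cd8b1 and Lck), of 6 endothelial genes 2 were higher (Kdr and Emcn), and of 6 mesenchymal genes 1 was higher (Dcn) and 2 were lower (Col1a1 and Pdgfrb). Without cells with thymocyte or myeloid UMIs, Psme1, Psme2 and Psme3 differed by -1.71, -1.38 and -1.27 (adjusted p = 0.00955, 0.0298 and 0.0346, edgeR). That selection kept 823 of 1585 and 987 of 5613 adult mTEC cells, against 370 of 493 and 423 of 530 adult cTEC cells. It thus compares a small part of mTEC in replicate 2, and the part of these markers was not tested further. Without adult mTEC replicate 2 none of the 4 passed, with adjusted p between 0.0636 and 0.163. Without adult mTEC replicate 1 only Psme1 passed, and without adult cTEC replicate 2 Psmb9 alone was lost. Over the 15 alternatives adjusted p ranged up to 0.163 for Psmb9, 0.0687 for Psme1, 0.104 for Psme2 and 0.0636 for Psme3, and the direction of each was kept.

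The other 5 genes did not pass between the lineages: Psmb8 differed by -0.61 ± 0.38 (adjusted p = 0.242), Psmb10 by 0.55 ± 0.40 (0.33; 0.02 without adult cTEC replicate 2 to 1.009 without replicate 1), Psmb7 by -0.55 ± 0.38 (0.296), Psmb6 by -0.24 ± 0.39 (0.693) and Psmb5 by -0.06 ± 0.38 (0.921). Without cells with thymocyte or myeloid UMIs Psmb10 was 420 and 474 CPM in adult mTEC, and its difference was 0.90 (adjusted p = 0.17; 0.078 to 0.958 over 15 alternatives). That selection kept 823 of 1585 and 987 of 5613 adult mTEC cells. The cTEC-gated adult libraries held 60 and 44 cells in clusters made up mostly of adult mTEC. Leaving those cells out, an alternative added after seeing the data, moved Psmb8 to 216 and 165 CPM in adult cTEC and its difference from mTEC to -1.01 ± 0.38 (adjusted p = 0.0341; 0.0341 to 0.637 over 15 alternatives). The log2 ratio of Psmb9 to Psmb6 was higher in adult cTEC than mTEC by 1.85 in data set 1 and 2.33 in data set 2, and that of Psmb10 to Psmb7 by 1.17 and 1.04. That of Psmb8 to Psmb5 was lower by -0.11 and -0.98. No ratio overlapped between the lineages, but 2 libraries against 2 cannot reach an exact permutation p below 0.333, which was the p of each.

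**Figure D3:**
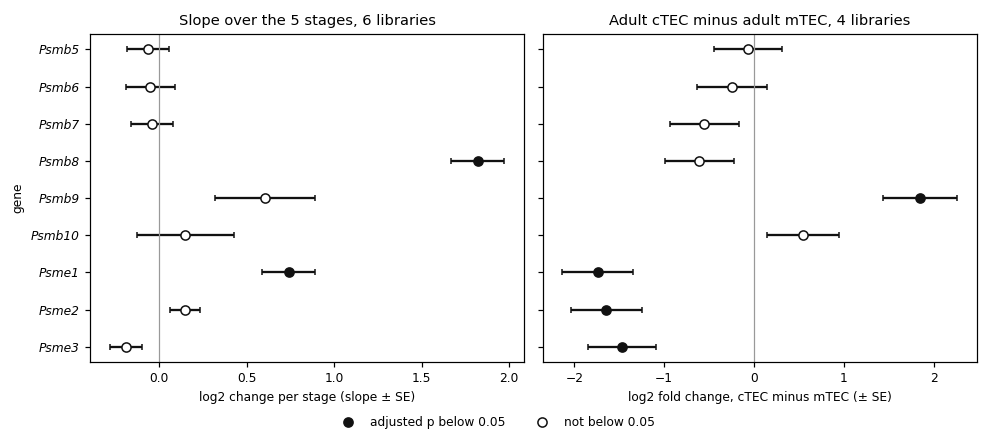
Left, slope on stage rank over the 6 cortical libraries; right, log2 fold change of adult cTEC minus adult mTEC over 4 libraries; points are edgeR estimates, bars are 1 SE and filled points have an adjusted p below 0.05. Psmb8 and Psme1 pass on the left, and Psmb9, Psme1, Psme2 and Psme3 on the right, Psme1 with a rise over stages and a lower level in adult cTEC than in adult mTEC.

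Psmb5, Psmb8 and Psmb11 encode alternatives for 1 position of the core. Of their UMIs together, Psmb11 made up 35.4% in E13.5 TEC, 74.2% in E15.5 cTEC, 81.1% in E17.5 cTEC, 67.8% in NB cTEC, 53.6% and 71.6% in adult cTEC, and 0.577% and 1.25% in adult mTEC. Psmb8 made up 0.241% to 0.429% in the 3 embryonic libraries, 3.43% at birth, 24.2% and 10.2% in adult cTEC, and 53.7% and 51.9% in adult mTEC. Psmb5 made up 64.2% at E13.5, 18.2% to 28.8% in the cTEC libraries, and 45.8% and 46.8% in adult mTEC. Psmb11 lies 3410 bases from Psmb5 on chromosome 14. It was higher in adult cTEC than mTEC (log2 difference 7.32 ± 0.51, adjusted p = 3.81e-10) and its slope over stages was 0.12 ± 0.27 (adjusted p = 0.809). Psmb10 and Psmb11 had similar steps from E13.5 to E15.5, at 5.44- and 5.70-fold.

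**Figure D4:**
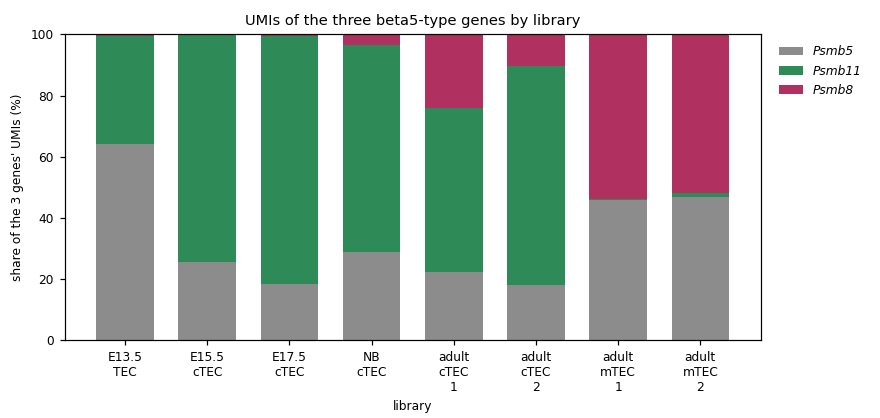
Share in percent of the summed UMIs of Psmb5, Psmb11 and Psmb8 in each of the 8 libraries (bars stacked to 100%). Psmb11 is the largest part in every cTEC library, Psmb8 is under 0.5% before birth, and adult mTEC are split between Psmb5 and Psmb8.

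Levels were next compared between cells of the same library, as descriptions with no test. In E13.5 TEC, 1515 cells had a UMI of Psmb11 or Prss16, a second cortical gene, and 342 had none. Psmb9 was at 54.0 CPM in the former and 7.46 in the latter, and Psmb10 at 283 and 73.4. Psme1 went the other way, with 14.6 and 50.1 CPM. It was at 115 CPM (77 UMIs) in the 105 E13.5 cells of a cluster led by the thyroid genes Hhex and Nkx2-1, where Psmb11 was at 5.99 CPM. All cells without a cortical UMI held 121 Psme1 UMIs, and the part of that cluster in the contrast was not tested. The E15.5 levels of Psmb9 and Psmb10 were 445 and 1349 CPM. In adult cTEC, 326 of 493 and 423 of 530 cells had such a UMI, and so did 397 of 1585 and 1659 of 5613 adult mTEC cells, so a single UMI of these genes does not mark a cell as cortical. Psmb10 was 839 CPM in adult cTEC cells with a UMI and 233 without one in replicate 1, and 1338 and 272 CPM in replicate 2. In adult mTEC it was likewise higher with a UMI, at 628 and 512 CPM in replicate 1 and 696 and 597 CPM in replicate 2. Psmb8 was lower with a UMI in both lineages, at 285 and 348, 160 and 444 CPM in adult cTEC and 281 and 393, 305 and 385 CPM in adult mTEC. The medullary gene Ccl21a was lower with a UMI too, at 4666 and 7544, 480 and 3290 CPM in adult cTEC and 4081 and 7532, 2360 and 3200 CPM in adult mTEC. Its part in these contrasts was not tested. Cells without a UMI were shallower in all 4 adult libraries, with medians of 2963 against 4638 and 5368 against 7685 UMIs in adult cTEC and 8581 against 12772 and 10084 against 14782 in adult mTEC.

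Cells with a proliferation score above 0 had lower Psmb9 than the other cells in 7 of 7 libraries that held at least 20 of them, with a median of 0.821-fold. Psmb10 was lower in 6 of 7, among them E15.5 cTEC (840 against 1640 CPM) and E17.5 cTEC (754 against 1530 CPM). Of the activator genes, Psme1 was lower in 7 of 7 (0.393- to 0.994-fold), Psme2 was lower in 5 of 7 (0.563- to 1.124-fold) and Psme3 was higher in 7 of 7 (1.18- to 1.79-fold). Psmb8 was lower in 5 of 7, among them adult mTEC (186 against 395 CPM in replicate 1 and 189 against 396 CPM in replicate 2) and, by little, NB cTEC (67.1 against 68.0). It was higher in E17.5 cTEC (10.96 against 7.49 CPM) and adult cTEC replicate 2 (258 against 194 CPM). There the thymocyte genes summed to 44.9 against 14.3 CPM and, with 42 cells scored above 0, to 390 against 69.9 CPM. In E15.5 and NB cTEC they were also higher (7.0 against 5.8 and 17.2 against 14.9 CPM), though Psmb8 was not. They were lower in E13.5 TEC (6.9 against 8.4 CPM) and adult mTEC (12.9 against 41.0 and 16.9 against 41.4 CPM), as was Psmb8. Their part in Psmb8 was not tested. Psmb5, Psmb6 and Psmb7 lay between 0.816- and 1.30-fold throughout.

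The 2 adult mTEC libraries were clustered separately without the proteasome, class I and interferon genes. Clusters of at least 50 cells numbered 8 in replicate 1 and 11 in replicate 2. Psmb8 spanned 5.27-fold over clusters in replicate 1 and 4.49-fold in replicate 2, whereas Psmb5 and Psmb6 spanned no more than 1.62-fold. The lowest Psmb8 was in the cluster led by the replication and mitosis genes Pclaf, Birc5 and Rrm2 in each replicate, at 141 and 161 CPM. The highest was 745 CPM in the mTEC III-like cluster of replicate 1, led by Spink1 and Gsta4, and 723 CPM in an unnamed cluster of replicate 2 led by Guca2b and Apoc3; the mTEC III-like cluster of replicate 2 had 405 CPM. Psmb10 was lowest in mTEC I-like cells of replicate 1 (240 and 275 CPM in its 2 clusters) and in tuft-like mTEC IV cells of replicate 2 (257 CPM), where mTEC I-like cells had 354 CPM. It was highest, at 791 and 791 CPM, in unnamed clusters with 818 and 781 CPM of Aire, the regulator of tissue-restricted antigens. Cluster 3 of replicate 2 had Psmb10 at 783 CPM, with 405 CPM of Aire and 698 CPM of Psmb8. The mTEC II-like cluster of replicate 1, with the highest Aire (961.5 CPM), had Psmb10 at 698 CPM. Psme2 was lowest in mTEC I-like clusters in both replicates (280 and 370 CPM), and highest in the mTEC II-like cluster of replicate 1 (908 CPM) and in the Aire-high unnamed cluster of replicate 2 (979 CPM). The mTEC I-like clusters had Psmb8 levels of 574, 432 and 408 CPM, so low Psmb10 did not go with low Psmb8 there. Cluster 4 of replicate 2, with 687 cells, had the mTEC I markers Ccl21a and Krt5 among its leading genes but stayed unnamed by the marker rule, with Psmb8 of 251 and Psmb10 of 495 CPM. Psmb7 was at 571 CPM in a cluster of 93 cells of replicate 2 led by Ccl6, Ccl20 and Gp2, against 156 to 249 CPM in the other 10.

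**Figure D5:**
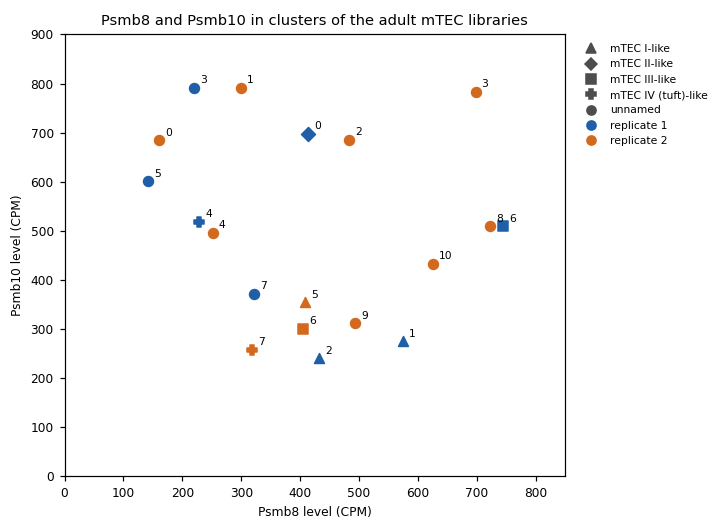
Psmb8 against Psmb10 level (CPM) in clusters of at least 50 cells of the adult mTEC libraries; each point is a cluster with its number, colour gives the replicate and shape the subset name. The mTEC I-like clusters combine Psmb10 of 240 to 354 CPM with Psmb8 of 408 to 574 CPM. The cluster with the highest Psmb10 of each replicate (791 CPM) has Psmb8 of 220 and 300 CPM. Cluster 3 of replicate 2, with Psmb10 of 783 CPM, has Psmb8 of 698 CPM.

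No list of structural proteasome subunits had a member that passed over stages, where 7.29% of all genes passed. Nothing particular to these lists is read from their counts. Of the 7 alpha subunits of the core, 0 passed in the slope over stages (median 0.11 per stage, all genes 0.00), nor did any of the 4 non-catalytic beta subunits Psmb1, Psmb2, Psmb3 and Psmb4 (slopes 0.06 to 0.19), of 23 subunits of the 19S regulatory particle (median 0.03) or of the 5 assembly factors Pomp, Psmg1, Psmg2, Psmg3 and Psmg4 (slopes -0.10 to 0.08). Of 4 further regulators, the transcription factors Nfe2l1 and Nfe2l2, which drive proteasome and antioxidant genes, rose by 0.40 ± 0.09 and 0.46 ± 0.09 per stage (adjusted p = 0.0436 and 0.0359, edgeR), and the cap Psme4 and the inhibitor Psmf1 had slopes of -0.12 and -0.09. Between adult cTEC and mTEC, Psmd10, a chaperone of the regulatory particle, was lower in cTEC (-1.001 ± 0.37, adjusted p = 0.04) and Nfe2l2 higher (1.07 ± 0.37, 0.0273), and none of the other members of these lists passed, where 10.7% of all genes were higher and 20.2% lower (30.8% in either direction).

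The peptide-loading genes H2-D1, B2m, H2-K1 and Tap2 rose over stages by 1.37, 1.21, 1.26 and 1.25 per stage (adjusted p = 0.00734, 0.00812, 0.00888 and 0.00916), 4 of 11 on the list, where 4.60% of all genes rose. Between the lineages Tap2 was higher in adult cTEC (1.38, adjusted p = 0.0103) and the chaperone Calr lower (-1.28, 0.0171), where 10.7% and 20.2% of all genes were. Of 16 genes of interferon signalling, Irf1, Socs1, Stat2 and Nlrc5 rose over stages (1.11, 1.26, 0.77 and 1.32 per stage, adjusted p = 0.0077, 0.00933, 0.0212 and 0.0244, edgeR), where 4.60% of all genes rose. In adult cTEC against mTEC, Irf1 was higher (1.72, adjusted p = 0.00149, edgeR) and Ifngr2 and Nlrc5 lower (-1.90 and -1.46, 0.000438 and 0.026), where 10.7% and 20.2% of all genes were. Of 16 interferon target genes 11 rose over stages and 0 fell (4.60% and 2.69% of all genes), with Ifi47, Rsad2, Rtp4, Cxcl10 and Irgm1 at 1.86, 1.75, 1.70, 1.68 and 1.57 per stage. Between lineages Irgm1, Gbp7, Gbp2 and Isg15 were higher in adult cTEC (2.40, 1.85, 1.72 and 1.52) and Cxcl9 lower (-2.87), where 10.7% and 20.2% of all genes were.

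Markers of other cells moved with stage beside the rise of Psmb8. Beside the counts given here, 4.60% of all genes rose over stages and 2.69% fell. The summed level of 12 thymocyte genes was 6.22 to 19.6 CPM in libraries up to birth, 48.2 and 105 CPM in adult cTEC, and 36.0 and 36.6 CPM in adult mTEC, and 6 of 11 tested rose over stages. That of 8 myeloid genes was 0.986 to 3.76 CPM up to birth, 253 and 32.4 CPM in adult cTEC, and 438 and 558 CPM in adult mTEC, and 3 of 5 tested rose. Lyz2 was 197 and 13.9 CPM of it in adult cTEC and 370 and 443 CPM in adult mTEC. Of 8 mesenchymal genes the sum was 7.86 to 33.8 CPM up to birth and 510 and 320 CPM in adult cTEC, of which Dcn made up 499 and 312 CPM while Pdgfra was at 0. In adult mTEC it was 99.7 and 69.1 CPM. Of 6 endothelial genes it was 1.05 to 11.9 CPM up to birth, 70.0 and 12.7 CPM in adult cTEC and 20.03 and 12.0 CPM in adult mTEC, and 2 of 5 tested, Pecam1 and Cdh5, rose over stages (adjusted p = 0.0349 and 0.0254). Other markers were higher at the early end. Pth, the parathyroid hormone gene, fell by 3.30 per stage (adjusted p = 0.00575), and 4 parathyroid genes summed to 129 CPM in E13.5 TEC, 6.55 in E15.5 cTEC, 69.1 in E17.5 cTEC and 1.90 in NB cTEC. Of 4 erythroid genes tested 1, Hba-a2, fell, and the list sum was 79.8 CPM in E17.5 cTEC and 14.8 in E13.5 TEC. The sum of 4 thyroid genes was 33.1 CPM in E13.5 TEC and no more than 0.255 CPM in the later libraries up to birth. A cluster of 110 cells led by Hhex and Nkx2-1, with Pax8 among its leading genes, came mostly from E13.5 TEC and was kept as epithelial-like. The part of these markers in the result was not tested beyond the selections given next. Without cells that had any UMI of the thymocyte or myeloid genes, an alternative added after seeing the data, Psmb8 was 252 and 189 CPM in adult cTEC and 67.9 CPM in NB cTEC, against 301, 200 and 67.8 CPM with them. In adult mTEC, where it left out 762 of 1585 and 4626 of 5613 cells, Psmb8 was 365 and 338 CPM. Genes of the mTEC I list reached 7010 and 2008 CPM in adult cTEC against 247 to 932 CPM earlier. Without cells of the cortical libraries in clusters made up mostly of adult mTEC, the slope of Psmb8 over stages was 1.73 ± 0.14 (adjusted p = 0.00287, edgeR).

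The genes most alike to each member over the 8 libraries (highest Pearson's r of log2(CPM + 1) among 5983 genes with a mean of at least 20 CPM) are given as a description, since the libraries share lineage, stage and data set. Psmb8 was most like Atp6v0e (r = 0.99), 2810474O19Rik (0.99) and Casp4 (0.99), Psmb9 was most like A230050P20Rik (0.98), Tsc22d1 (0.98) and Dsc3 (0.98), and Psmb10 was most like Bckdhb (0.98), Fbxl15 (0.97) and Nudt22 (0.96). Psme1 had Srgn, Reg3g and Slpi (0.998, 0.996 and 0.994), Psme2 had Cd70, Syngr2 and Arsb (0.99, 0.98 and 0.98), and Psme3 had Dhrs7b, Lsr and Fam53a (0.98, 0.98 and 0.97). Psmb5 had Eif3g, Sys1 and Coq6 (0.97, 0.97 and 0.97), Psmb6 had Uqcrc2, Tsta3 and Asns (0.96, 0.94 and 0.93), and Psmb7 had Exosc5, Farsa and Cyb5b (0.97, 0.95 and 0.95). No member was among the 3 nearest genes of another. Between members, r was 0.87 for Psmb9 and Psmb10, 0.91 for Psmb8 and Psme1, 0.90 for Psme1 and Psme2, and 0.29 and 0.01 for Psmb8 with Psmb9 and Psmb10.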

How the data were processed

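The authors made Chromium version 2 libraries and deposited raw UMI counts per gene and called cell, without normalization. Per the labels and the submitters' processing notes, Cell Ranger 2.0.1 with STAR 2.5.1b and mm10 was used. The matrix headers of data set 2 name version 3.0.1, and the gene lists differ (27998 and 31053 genes). The 27514 shared genes were used. Cells with over 5% mitochondrial UMIs or 5000 genes were left out, the rest was clustered per data set (Leiden, resolution 0.8, 2000 variable genes without proteasome, class I and interferon genes, 20 components, leidenalg 0.10.2), and thymocyte-, parathyroid- and erythroid-like clusters were left out by at least 3 markers at 4-fold, leaving 24625 cells. Doublets were not called otherwise. Clusters were named from marker lists, so names may differ from those of the study.

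Counts were summed per library, the unit of every test. The labels do not say that adult replicates came from separate animals, so the spread between libraries may be technical. Each stage before the adult had 1 library. Hence p-values of the stage slope also take in departure from a straight line over ranks, not the spread between libraries alone. edgeR 4.0.16 (R 4.3.3; filterByExpr, TMM, quasi-likelihood test, Benjamini-Hochberg over all genes, threshold 0.05) tested the stage slope over 6 libraries and adult cTEC against mTEC over 4, each with data set as a term. DESeq2 1.42.0 was an alternative. Scripts were tested on simulated data. Ratios were tested by exact permutation. Intervals are exact at 95% and cover counting error only. All members and Psmb11 were named, and of each other list up to 5 called genes with the largest change, or all of a list of 5 or fewer. The members, lists and motifs were chosen with earlier results of these data known.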

Additional observations from a re-analysis of the deposited data

Results flagged for a closer look

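A pair of levels stood out as higher in clusters that were left out of the comparisons, each with a lower 95% Poisson bound over 2 times the upper bound in the epithelial-like cells of the same library. Psmb8 was at 186 CPM (165 to 209, 286 UMIs) in the 169 droplets of the thymocyte-like cluster of NB cTEC, against 67.8 CPM in the epithelial-like cells. Psme1 was at 106 CPM (81.5 to 136, 62 UMIs) in the 124 cells of the parathyroid-like cluster of E13.5 TEC, against 20.5 CPM. Lower levels were not searched for in the same way. The parathyroid-like cluster had Psmb10 at 29.1 against 248 CPM and Psmb9 at 6.86 against 46.2 CPM, and the erythroid-like cluster of E17.5 cTEC had Psmb9 at 140 against 377 CPM and Psmb10 at 561 against 1396 CPM. Psmb11 was at 695 CPM in that erythroid-like cluster, against 1549 CPM in the epithelial-like cells. In the thymocyte-like cluster of NB cTEC it was at 1660.5 against 1340 CPM. Both clusters thus held cortical transcripts too, and their names come from the marker rule alone. These comparisons are each within 1 library and were not tested. No group had the 4 samples needed to look for outlying samples.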

How the results depend on the processing

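Of the 19 alternatives to the stage slope, DESeq2 called 2661 genes (1500 higher, 1161 lower), leaving out cells with a proliferation score above 0 called 632 (139 lower) and data set 1 alone 438 (277 higher, 161 lower). Both of the latter left 1 of the 9 members higher, Psmb8. Leaving out 1 library at a time gave 12 to 1198 genes (10 to 885 higher, 2 to 313 lower) and 0 to 2 members higher, with the lowest counts without adult cTEC replicate 1. The slope of Psmb8 lay between 1.73 and 2.08 in all 19. Leaving out 1 library, the slopes went from -0.15, -0.17 and -0.13 (without NB) to 0.10, 0.12 and 0.13 (without adult cTEC replicate 1) for Psmb5, Psmb6 and Psmb7, and from -0.23 (without E13.5) to 0.40 (without adult cTEC replicate 1) for Psmb10. None of these slopes passed the threshold.

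Of the 15 alternatives to adult cTEC against mTEC, DESeq2 called 2613 genes (920 higher, 1693 lower), and leaving out cells with thymocyte or myeloid UMIs, added after seeing the data, called 2406 (939 higher, 1467 lower). Leaving out 1 library at a time, with no data set term since none could be estimated and the lone library assumed to vary like the other group, gave 1970 to 2851 genes (596 to 958 higher, 1374 to 2031 lower), 0 to 1 member higher and 0 to 3 lower. Leaving out adult cTEC replicate 2 or 1 put Psmb5 at -0.36 or 0.19 and Psmb6 at -0.58 or 0.050, and Psmb5 was at 0.0036 without adult mTEC replicate 2 and at 0.0095 without cells with a proliferation score above 0. The cause of these changes was not tested.

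The slopes of log2 Psmb8/Psmb5 and Psmb9/Psmb6 were 1.91 and 0.82 after centring on data sets (adjusted exact permutation p = 0.0625 each, where fewer permutations are possible). Leaving out 1 library gave 0.39 (without E13.5) to 1.004 (without E15.5) for Psmb9/Psmb6 and -0.089 (without E13.5) to 0.50 for Psmb10/Psmb7. The lineage difference of each ratio kept its sign in 10 of 10 alternatives. The data set term pairs adult cTEC and mTEC by replicate number and so is the replicate block. Without it 4161 genes were called between the lineages (1338 higher, 2823 lower) and 1246 over stages, and no call of the 9 members changed. Counting error was smaller than the spread between libraries for Psmb8 in adult cTEC (95% intervals of 278 to 325 and 187 to 215 CPM).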
